A study of Mus musculus with 9 samples.

Results

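Imprinted genes are transcribed mainly from the copy inherited from 1 parent, and 42 mouse genes known for this were followed here in a line of intestinal cells and in 2 clones of it made to lack Cdk8. The genes were chosen by symbol from a list of imprinted genes, and all 42 were matched, by Entrez ID, among the 28059 genes of the table. Snrpn and Snurf lie on the same transcript and count as 1 locus, which leaves 41 loci in 18 domains, 20 of them expressed from the paternal and 21 from the maternal allele.

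An imprint is set in the germ line as DNA methylation of a control region on 1 parental copy. The control region then acts on a whole cluster of genes, through the insulator protein CTCF at H19 and Igf2, and through long non-coding RNAs such as Kcnq1ot1 and Airn that silence their neighbours in cis. Many paternally expressed genes, among them Peg3, Mest, Plagl1 and Igf2, bear on fetal growth, and several maternally expressed ones, among them Cdkn1c, Grb10, Phlda2 and H19, restrain it. For some members (Ube3a, Blcap, Cd81, Tssc4, Ascl2, Slc22a2, Slc22a3, Dcn, Gatm) imprinting is known in brain, placenta or yolk sac only, so that both alleles can be active elsewhere. The table gives 1 value per gene and library, with both alleles summed, and says nothing about which parental copy was read.

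The cells were YAMC, a mouse line that is known to derive from the colon of a mouse carrying a temperature-sensitive SV40 large T antigen and for which the tissue label reads small intestine. Parental cells, wildtype for Cdk8, were compared with Cdk8 -/- clone 1 and Cdk8 -/- clone 19, both made by CRISPR, and all 3 groups were growing logarithmically at 32 °C when RNA was taken. Each group had 3 libraries, each knockout group is a single clone, no wildtype clone is analysed here, and an effect of losing Cdk8 cannot be told apart from one of growing a clone. The labels do not say that the libraries of a group came from separate cultures, so p-values cover no more than the spread of these libraries.

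Values are RPKM, the reads of a gene divided by its length in kilobases and by the megareads of its library. Depth, estimated from the steps between low values, ran from 23.15 to 43.95 megareads per library, at which 3 reads on a transcript of 1 kilobase are worth 0.13 to 0.068 RPKM. Cdk8 RNA, the targeted one, stood at 17.5 to 17.7 RPKM in parental cells, 10.3 to 11.6 in clone 1 and 10.3 to 10.5 in clone 19, so it was lower in both clones and not lost. Of 12 epithelial markers, 4 passed the filter on low values (Cdh1 and the keratins Krt8, Krt18 and Krt19, which also stand in the mesothelial list), and the 12 summed to 613 to 632 RPKM in parental cells, 986 to 1036 in clone 1 and 969 to 976 in clone 19. The intestinal factor Cdx2 was listed at 0 in all libraries, and Vil1, Krt20, Cdx1, Muc2 and Lgr5 reached at most 0.168, 0.0635, 0.0171, 0.0619 and 0.0135 RPKM. All 7 mesothelial markers passed, with a summed level of 1214 to 1234 RPKM in parental cells, 2049 to 2133 in clone 1 and 2024 to 2042 in clone 19. In each clone 6 of them were called higher. Msln was called lower, at means of 82.6 RPKM in clone 1 and 101 in clone 19 against 111 in parental cells. All 10 mesenchymal markers passed as well, with sums of 2301 to 2358, 2306 to 2356 and 2025 to 2091 RPKM. Of 12 immune, endothelial and neural markers 2 passed, Tubb3 and Kdr. The sums were 57.7 to 58.5, 31.0 to 31.8 and 33.2 to 35.1 RPKM, with the T cell gene Cd3e at 0 throughout. Nearly all of each sum was Tubb3, at means of 56.4, 30.5 and 33.2 RPKM in parental cells, clone 1 and clone 19. Kdr was at 1.63, 0.735 and 0.671 RPKM.

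Expression of most loci was low. A gene was tested where it reached 1 RPKM in at least 3 of the 9 libraries, and 18 of the 41 loci in 13 of the 18 domains did so, 9 paternally and 9 maternally expressed. Gnas, Cd81, Grb10 and Dcn were the most abundant of them per length, at means of 113, 107, 58.0 and 47.2 RPKM in parental cells. Of the 23 loci that were not tested, 16 stayed below 0.1 RPKM in every library and 2, Meg3 and Rasgrf1, were listed at 0 throughout. Cdkn1c passed only through its level in clone 19, and Snrpn only with the help of its level in the clones, so counts over the tested loci describe those loci and not the list.

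Among the 18 tested loci, 9 were called higher and 3 lower in clone 1 at an adjusted p under 0.05 (limma with Benjamini-Hochberg adjustment over all 12568 tested genes). In that comparison 39.8% of all tested genes were called higher, 32.6% lower and 72.4% in either direction, so the share of tested loci that was called, 66.7%, lay near the background. In clone 19, 10 were called higher and 4 lower, against 36.7% and 32.3% of all tested genes. The 7 loci that rose in both clones (Snrpn, Cd81, Peg3, Grb10, Blcap, Mcts2 and Dcn) and 3 that fell in both (Ndn, Peg10 and Impact) stand beside 30.7% and 25.8% of all tested genes, and both comparisons share the parental libraries. Changes of at least 2-fold were called for 4 of the 18 loci in clone 1 (Ndn, Impact, Snrpn and Peg3), where 4.46% of all tested genes had one, and for 2 in clone 19 (Peg10 and Dcn), beside 4.07%. Between the clones, 7 loci were higher and 6 lower in clone 19, which is 72.2% of the 18, where 43.0% of all tested genes were called. The 7 include Cdkn1c, and of the 6 lower, Ube3a and Tssc4 lost their calls in 10 and 12 of 20 alternatives. Ndn alone differed between the clones by at least 2-fold, beside 0.461% of all tested genes.

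**Figure D1:**
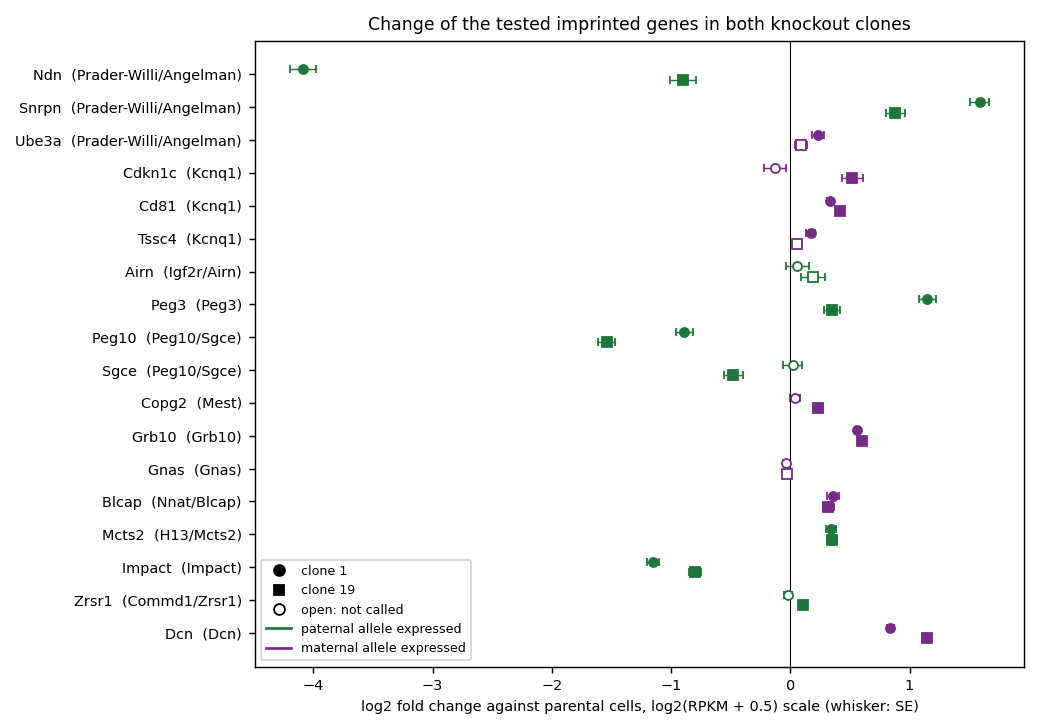
Log2 fold change against parental cells (x axis, log2(RPKM + 0.5) scale, whiskers SE) of the 18 tested imprinted loci (y axis, with domain) in clone 1 (circles) and clone 19 (squares), coloured by the allele known to be expressed, with open symbols where the change was not called. Ndn in clone 1 stands farthest out at -4.09, Snrpn, Peg3 and Dcn reach 1.59, 1.15 and 1.15, and no maternally expressed locus was called lower in either clone (Gnas was with median-ratio scaling, quantile normalization or neighbouring genes subtracted, and Copg2 in clone 1 with the last).

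By expressed allele, the loci differed in the spread of their changes. The 9 tested maternally expressed loci had 6 called higher and 0 lower in each clone, with median log2 fold changes of 0.23 and 0.32. Over all tested genes, 39.8% were called higher and 32.6% lower in clone 1 and 36.7% and 32.3% in clone 19, with medians of 0.03 and 0.02. The 9 paternally expressed loci had 3 higher and 3 lower in clone 1 and 4 higher and 4 lower in clone 19, with medians of 0.02 and 0.11. The median absolute change was 0.89 and 0.48 for the paternally expressed loci, 0.23 and 0.32 for the maternally expressed ones, and 0.22 and 0.20 over all tested genes. Gnas joined the lower calls in both clones under median-ratio scaling, quantile normalization and subtraction of neighbouring genes, and in clone 1 with library weights or without clone 1 replicate 2. The medians describe 9 loci each. Cdkn1c, among the maternally expressed loci called higher in clone 19, passed the filter through clone 19 alone, where it was high. Snrpn, among the paternally expressed loci called higher, passed only with the help of its level in the clones. The call of Copg2 in clone 19 ended with neighbouring genes subtracted (0.09, limma adjusted p = 0.063). Of the maternally expressed ones, Ube3a, Blcap, Cd81, Tssc4 and Dcn are known to be imprinted in brain, placenta or yolk sac only. Both of their alleles can be active in these cells, so the grouping does not show which copy was read. The difference between the allele groups was not tested.

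Ndn (necdin, Entrez 17984, chromosome 7), a MAGE family protein known for holding back cell division in neurons, was almost lost in clone 1. Its level was 8.49, 8.04 and 8.44 RPKM in parental cells, 0, 0 and 0.0577 in clone 1, and 4.21, 3.46 and 5.10 in clone 19. The 3 groups did not overlap, with parental highest and clone 1 at or next to 0. Ndn is a gene of 1 exon, 1652 bases in RefSeq, and at the estimated depths these levels correspond to about 616.2, 373.0 and 458.6 reads in the parental libraries and 0, 0 and 3 reads in clone 1. On the log2(RPKM + 0.5) scale the change was -4.09 ± 0.11 in clone 1 (SE, n = 3 against 3, limma adjusted p = 1.3e-10) and -0.90 ± 0.11 in clone 19 (limma adjusted p = 1.9e-05). The first value is no measure of the fold because it depends on the pseudocount, with -6.18 at 0.1 and -3.19 at 1. In RNA from whole cultures, fewer cells with a transcript and less transcript per cell cannot be told apart.

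Snrpn (Entrez 20646), which encodes the splicing protein SmN and starts at the imprinting centre of the same Prader-Willi/Angelman domain, went the other way. It was at 1.07, 0.907 and 1.12 RPKM in parental cells, 4.05, 4.14 and 4.11 in clone 1 and 2.36, 2.54 and 2.07 in clone 19. The groups did not overlap, with clone 1 highest, so the order of the groups was the reverse of that of Ndn. On the log2 scale Snrpn rose by 1.59 ± 0.08 in clone 1 and 0.88 ± 0.08 in clone 19 (limma adjusted p = 1.1e-08 and 1.5e-06). Snrpn passed the filter only with the help of its level in the clones, where it was high. With no filter the adjusted p-values in limma were 5.1e-07 and 2.4e-05. Snurf, read from the same transcript, was 1.21 times Snrpn in every library, so the 2 entries hold the same reads. Between the clones, Ndn differed by 3.18 and Snrpn by -0.71 on the log2 scale, clone 19 minus clone 1 (limma adjusted p = 6.1e-08 and 4.8e-05).

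The promoters of Ndn and of Snurf with the start nearest to it of Snrpn are shown because these 2 paternally expressed genes of 1 domain moved in opposite directions. Each is 300 bases, 250 before and 50 after the start, from RefSeq (GRCm38.p6; Ndn on the plus strand at chr7:62348027-62348326, Snurf on the minus strand at chr7:60005150-60005449), 5′ to 3′, with every CpG in capitals.
Ndn: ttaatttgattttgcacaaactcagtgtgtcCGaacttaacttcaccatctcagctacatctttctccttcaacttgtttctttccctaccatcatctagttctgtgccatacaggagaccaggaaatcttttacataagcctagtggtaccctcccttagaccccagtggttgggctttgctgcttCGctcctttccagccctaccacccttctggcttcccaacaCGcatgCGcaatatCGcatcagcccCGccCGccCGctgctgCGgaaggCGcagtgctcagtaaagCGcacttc
Snurf: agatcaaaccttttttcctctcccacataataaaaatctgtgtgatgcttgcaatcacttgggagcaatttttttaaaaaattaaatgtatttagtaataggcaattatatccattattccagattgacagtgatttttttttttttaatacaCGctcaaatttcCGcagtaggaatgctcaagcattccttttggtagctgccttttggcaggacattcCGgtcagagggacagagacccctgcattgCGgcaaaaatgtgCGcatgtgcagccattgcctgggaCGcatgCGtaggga
The Ndn window holds 11 CpGs and the Snurf window 7, the latter equal to the median of the 32851 promoters in the table. TGCCGC, the hexamer that the imprint-protecting protein ZFP57 is known to bind when methylated, was searched on both strands. It is absent from the Ndn window and occurs once in that of Snurf. The hexamer is in 11.6% of all promoters of this length. Among the 46 entries of the 34 members with an entry, some of which overlap each other, it is in 12 (26.1%). The hexamer itself contains a CpG, and member entries hold 1 to 48 CpGs. The shares were not compared at equal CpG number. The coordinates belong to this table and not to the build of the deposited values.

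The other members of the domain were less affected or scarcely expressed. Ube3a, a ubiquitin ligase imprinted in neurons only, had 12.9, 12.2 and 11.8 RPKM in parental cells, 15.4, 13.6 and 14.7 in clone 1 and 12.6, 13.4 and 13.3 in clone 19. It rose in clone 1 (a log2 change of 0.23 ± 0.05, limma adjusted p = 0.0014; 0.14 after subtracting its neighbours) and was not called in clone 19 (0.09 ± 0.05, limma adjusted p = 0.13). Mkrn3, a makorin ubiquitin ligase, was below the filter at 0.617 to 0.681 RPKM in parental cells, 0.362 to 0.439 in clone 1 and 0.443 to 0.575 in clone 19, with both clones below all parental libraries. Magel2, a MAGE relative of Ndn, stood at 0.00485, 0 and 0.00649 RPKM in parental cells and was listed at 0 in all 6 libraries of the clones.

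Other genes of the same domain, which are not on the list of members, are named here after their values were seen. Atp10a, a lipid flippase beyond Ube3a, rose from 6.43 to 11.4 and 9.13 RPKM (a log2 change of 0.78 and 0.47). Peg12, beyond Mkrn3, fell from 3.93 to 3.12 and 2.04 RPKM (-0.29 and -0.80). In gene order, the values thus changed from higher to lower between Snrpn and Ndn in both clones, with Ube3a not called in clone 19. The 50 tested non-member genes nearest to the domain had median differences of 0.04 in clone 1 and 0.08 in clone 19.

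**Figure D2:**
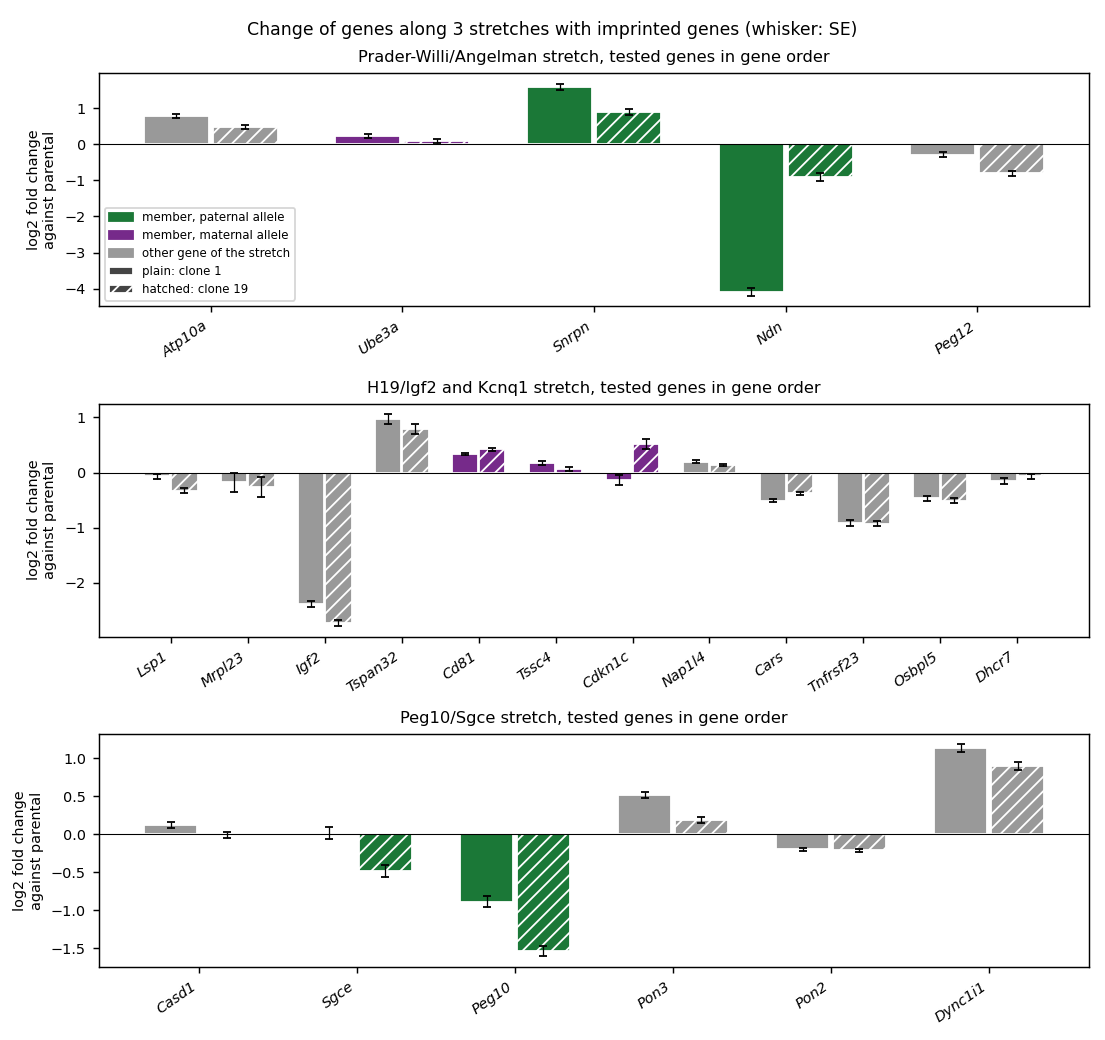
Change against parental cells (y axis, log2(RPKM + 0.5) scale, whiskers SE) of tested genes in the order they have on the chromosome (x axis) for 3 stretches, in clone 1 (plain bars) and clone 19 (hatched bars), with members coloured by expressed allele and other genes in grey. In the top panel Snrpn rises by 1.59 and 0.88 beside Ndn at -4.09 and -0.90, in the middle Igf2 stands at -2.39 and -2.73, and at the bottom Peg10 at -0.89 and -1.54.

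At the H19/Igf2 domain both RNAs were lower in the clones. H19, a maternally expressed non-coding RNA, was scarce, with 0.164, 0.108 and 0.162 RPKM in parental cells, 0 in all 3 libraries of clone 1, and 0, 0.0229 and 0 in clone 19. Neither clone overlapped the parental libraries. It did not reach the filter. Without a filter it was called lower in both clones, by -0.37 and -0.34 on a scale where a pseudocount of 0.5 exceeds every value (limma adjusted p = 3.5e-05 and 5.9e-05). Igf2, the paternally expressed growth factor that shares enhancers with H19 and is no member of the list, fell from 5.85, 6.14 and 6.15 RPKM in parental cells to 0.711, 0.781 and 0.766 in clone 1 and 0.450, 0.523 and 0.485 in clone 19. On the log2 scale this was -2.39 ± 0.06 and -2.73 ± 0.06 (limma adjusted p = 1.2e-10 and 5.4e-11). Igf2 passed the filter through the parental libraries alone, and with no filter the adjusted p-values in limma were 1.1e-08 and 6.9e-09. The single-gene log2 changes of the 50 nearest other genes had medians of -0.08 and -0.02.

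In the Kcnq1 domain, Cdkn1c, the CDK inhibitor p57, was higher in clone 19. It measured 0.908, 0.893 and 0.794 RPKM in parental cells, 0.709, 0.741 and 0.802 in clone 1, and 1.54, 1.22 and 1.64 in clone 19, where all libraries lay above all others. Cdkn1c rose by 0.52 ± 0.09 on the log2 scale in clone 19 (limma adjusted p = 3.7e-04) and had a change of -0.13 ± 0.09 in clone 1 (limma adjusted p = 0.23; 0.03 with quantile normalization), and the clones differed by 0.65 ± 0.09 (limma adjusted p = 2.7e-04). Cdkn1c passed the filter through clone 19 alone, the group where it was high, so the adjusted p-values for clone 19 and for the clones' difference rest on that choice; with no filter they were 0.0012 and 0.0011 in limma. Cd81, a tetraspanin, rose from 107 ± 0.212 RPKM (SD, n = 3) to 135 ± 3.68 and 144 ± 1.37 RPKM (0.33 and 0.42, limma adjusted p = 9.2e-08 and 1.6e-08). Tssc4, a factor of spliceosome assembly, rose from 20.1 to 22.7 in clone 1 (0.17 ± 0.04, limma adjusted p = 0.0023; 0.26 after subtracting its neighbours) and was at 21.1 in clone 19 (0.06 ± 0.04, limma adjusted p = 0.17). Leaving out clone 19 replicate 3 brought Tssc4 in clone 19 to a call (0.10, limma adjusted p = 0.0457).

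The other members of the Kcnq1 domain stayed below the filter. Kcnq1ot1, the silencing RNA, ran from 0.0479 to 0.0556 RPKM in parental cells and from 0.0396 to 0.0526 in clone 1. In clone 19 it ran from 0.0348 to 0.0408, below all parental libraries, and with no filter was not called (limma adjusted p = 0.15). The potassium channel Kcnq1 was at no more than 0.0234 RPKM. Without strand information, reads of Kcnq1ot1 and of the gene it overlaps cannot be told apart. Phlda2, a regulator of placental growth, reached 0.175 RPKM in 1 clone 1 library, with the others at or below 0.0924, and Slc22a18, a transporter, ran from 0.0694 to 0.152 RPKM in parental cells, 0 to 0.0564 in clone 1 and 0.0418 to 0.0552 in clone 19. Ascl2, a transcription factor of trophoblast and intestinal stem cells, was at 0.0140, 0.0220 and 0.0188 RPKM in parental cells and at 0 in all 6 libraries of the clones, levels of very few reads.

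Peg3, a paternally expressed zinc finger protein, rose most in clone 1. It stood at 4.49, 4.57 and 4.09 RPKM in parental cells, 11.1, 9.43 and 10.6 in clone 1, and 5.66, 6.34 and 5.24 in clone 19. All libraries of both clones lay above the parental ones, and those of clone 1 above those of clone 19. The log2 fold change was 1.15 ± 0.07 in clone 1 and 0.35 ± 0.07 in clone 19 (limma adjusted p = 1.2e-07 and 0.0015), and the clones differed by -0.80 ± 0.07 (limma adjusted p = 2.0e-05). The 50 nearest other genes had medians of -0.02 and 0.04. Usp29, which starts next to Peg3 on the other strand, stayed between 0.00465 and 0.0502 RPKM, with all clone 1 libraries above the parental ones. Zim1, a maternally expressed zinc finger gene on the other side of Peg3, was listed at 0.00646 RPKM in parental replicate 1 and at 0 in all other libraries.

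The Peg3 promoter is shown because Peg3, like Snurf, rose more in clone 1 than in clone 19 (RefSeq, GRCm38.p6, minus strand, chr7:6730370-6730669, CpGs in capitals).
Peg3: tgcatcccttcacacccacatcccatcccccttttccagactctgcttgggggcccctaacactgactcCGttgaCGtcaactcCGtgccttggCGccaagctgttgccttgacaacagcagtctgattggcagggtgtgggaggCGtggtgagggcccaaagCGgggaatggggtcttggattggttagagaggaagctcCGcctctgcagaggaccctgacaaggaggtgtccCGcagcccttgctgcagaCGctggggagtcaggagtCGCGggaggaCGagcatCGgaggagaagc
It holds 13 CpGs, as many as or more than 63.7% of the promoters in the table, and no TGCCGC on either strand.

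Peg10, a protein derived from a retrotransposon and needed in placenta, fell in both clones and further in clone 19. The values were 7.40, 7.13 and 7.05 RPKM in parental cells, 4.14, 3.38 and 3.49 in clone 1, and 2.07, 2.33 and 2.06 in clone 19, 3 groups without overlap. Peg10 changed by -0.89 ± 0.07 and -1.54 ± 0.07 (limma adjusted p = 7.1e-07 and 9.6e-09), with a difference of -0.65 ± 0.07 between the clones (limma adjusted p = 5.6e-05). Sgce, epsilon-sarcoglycan, starts beside Peg10 on the opposite strand from the same control region. It had 8.79, 9.27 and 9.48 RPKM in parental cells, 8.58, 9.83 and 9.65 in clone 1 and 6.03, 7.40 and 5.95 in clone 19. It fell in clone 19 (-0.48 ± 0.08, limma adjusted p = 2.0e-04) and was not called in clone 1 (0.02 ± 0.08, limma adjusted p = 0.79; -0.15 after subtracting neighbours). Peg10 was 0.743 to 0.842 times Sgce in parental libraries, 0.344 to 0.483 times in clone 1 and 0.315 to 0.345 times in clone 19. Neighbouring genes went the other way, with medians of 0.14 and 0.13, and Asb4 and Ppp1r9a, maternally expressed members of this cluster, were scarce. Asb4 stayed at or below 0.0138 RPKM, and Ppp1r9a was listed at 0.00422 RPKM in clone 19 replicate 3 and at 0 in all other libraries.

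**Figure D3:**
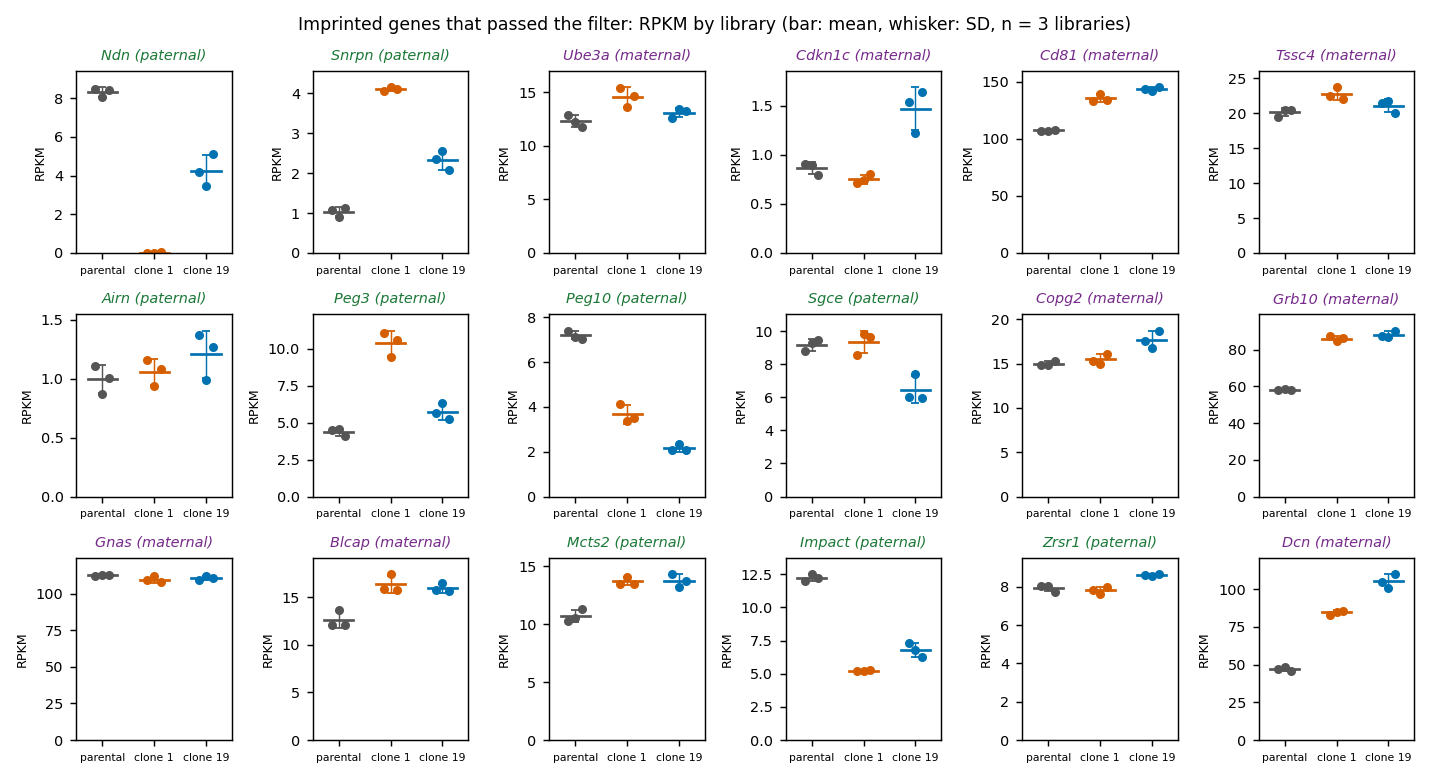
RPKM in each of the 9 libraries (points, y axis from 0) for the 18 tested loci by group (x axis), with the mean as a bar and the SD as a whisker (n = 3). The 3 groups are separate for Ndn, Snrpn, Cd81, Peg3, Peg10, Impact and Dcn, while for Airn all groups overlap. How many of all tested genes were separate in this way was not counted. Of all tested genes, 72.4% were called in clone 1, 69.0% in clone 19 and 43.0% between the clones.

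Impact, an inhibitor of the amino acid sensor GCN2, fell in both clones. It measured 12.0, 12.5 and 12.2 RPKM in parental cells, 5.24, 5.19 and 5.29 in clone 1 and 7.31, 6.76 and 6.29 in clone 19. The groups did not overlap, and clone 1 was lowest. The log2 fold change was -1.15 ± 0.05 in clone 1 and -0.80 ± 0.05 in clone 19 (limma adjusted p = 4.3e-09 and 7.9e-08), and clone 19 exceeded clone 1 by 0.34 ± 0.05 (limma adjusted p = 3.0e-04). Its 50 nearest genes had medians of 0.08 and -0.04.

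Dcn, the matrix proteoglycan decorin, is a fibroblast gene imprinted in placenta, and it rose in both clones. It stood at 46.9, 48.7 and 45.9 RPKM in parental cells, 83.0, 85.1 and 85.6 in clone 1 and 105, 100.5 and 109.8 in clone 19, again without overlap. The log2 fold change was 0.84 ± 0.03 in clone 1 and 1.15 ± 0.03 in clone 19 (limma adjusted p = 2.1e-09 and 2.4e-10), and the clones differed by 0.31 ± 0.03 (limma adjusted p = 4.0e-05). Genes around it were lower, with median log2 changes of -0.24 and -0.27 over the 50 nearest genes that are no members, of which 36 and 40 were called lower and 4 and 3 higher. With neighbouring genes subtracted, the rise of Dcn was 1.06 and 1.42. The 10 mesenchymal markers split into 5 higher and 5 lower in clone 1, and into 4 and 6 in clone 19. Their part in the rise of Dcn was not tested.

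Grb10, an adaptor that dampens insulin and IGF1 receptor signalling, was among the most abundant members. It had 57.8, 58.3 and 57.8 RPKM in parental cells, 87.3, 84.5 and 86.2 in clone 1 and 87.7, 86.7 and 90.3 in clone 19. Both clones lay above the parental libraries (a log2 change of 0.56 ± 0.02 and 0.60 ± 0.02, limma adjusted p = 1.6e-09 and 1.1e-09), and a difference between the clones was not called (0.04 ± 0.02, limma adjusted p = 0.19; -0.05 after subtracting neighbours). The surrounding genes were higher too, with medians of 0.35 and 0.34 over 50 genes, of which 40 and 38 were called higher. With the median of neighbouring genes subtracted per library, the change of Grb10 was 0.31 and 0.26 and still called (limma adjusted p = 2.2e-07 and 9.3e-07).

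The upstream promoter of Grb10 is shown as the CpG-rich contrast to the windows above (RefSeq, GRCm38.p6, minus strand, chr11:12037371-12037670, CpGs in capitals).
Grb10: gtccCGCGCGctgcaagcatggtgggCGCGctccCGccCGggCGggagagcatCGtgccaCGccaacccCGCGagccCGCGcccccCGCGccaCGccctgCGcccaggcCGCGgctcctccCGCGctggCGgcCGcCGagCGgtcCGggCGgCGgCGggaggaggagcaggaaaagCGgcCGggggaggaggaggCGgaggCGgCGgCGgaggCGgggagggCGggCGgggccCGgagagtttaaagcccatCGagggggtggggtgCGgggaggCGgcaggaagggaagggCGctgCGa
It holds 45 CpGs, as many as or more than 98.4% of promoters, and the hexamer once. A second Grb10 start in the table has 9 CpGs. Values per gene do not tell which start was used.

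Blcap, Mcts2 and Copg2 are members with a steady level in each group. Blcap, a membrane protein imprinted in brain, rose from 12.1, 13.7 and 12.1 RPKM in parental cells to 15.9, 17.4 and 15.8 in clone 1 and 15.7, 16.5 and 15.6 in clone 19 (a log2 change of 0.36 ± 0.05 and 0.32 ± 0.05, limma adjusted p = 8.3e-05 and 2.1e-04). Nnat, the paternally expressed neuronatin gene in an intron of Blcap, was low at 0.321 to 0.410, 0.183 to 0.278 and 0.233 to 0.395 RPKM. Mcts2, a retrogene in an intron of H13, rose from 10.7 to 13.7 RPKM in both clones (0.34 ± 0.04 and 0.35 ± 0.04, limma adjusted p = 2.0e-05 and 2.1e-05). Its host H13, a signal peptide peptidase, rose from 11.2 to 13.2 and 14.7 RPKM (0.22 and 0.37), and Mcts2 was 0.906 to 1.06 times H13 in all libraries. Mcts2 is nearly identical to its parent gene Mcts1 and lies within H13, so reads of the 3 genes could have been shared and its level is uncertain.

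Copg2, a coatomer subunit whose end overlaps that of Mest, was at 15.0 RPKM in parental cells and 15.4 in clone 1, and rose to 17.7 in clone 19 (0.23 ± 0.04, limma adjusted p = 4.1e-04). Subtracting neighbouring genes ended that call (0.09, limma adjusted p = 0.063), and in clone 1 the same subtraction turned a change of 0.04 into a called -0.11 (limma adjusted p = 0.0340). Mest, a paternally expressed hydrolase-like protein known from mesoderm, stayed under the filter with 0.579, 0.498 and 0.436 RPKM in parental cells, 0.838, 0.750 and 0.688 in clone 1 and 0.761, 0.637 and 0.683 in clone 19. Both clones lay above all parental libraries of Mest.

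Zrsr1, a paternally expressed splicing factor retrogene in an intron of Commd1, was at 7.94 ± 0.159 RPKM in parental cells, 7.82 ± 0.176 in clone 1 and 8.62 ± 0.0414 in clone 19. It was called higher in clone 19 (0.11 ± 0.03, limma adjusted p = 0.0126), and lower with neighbouring genes subtracted (-0.11, limma adjusted p = 0.0132). The first call ended without parental replicate 3 (adjusted p = 0.0515). Commd1, a regulator of NF-kB and copper, was at 42.1, 49.1 and 46.7 RPKM, called higher in both clones (0.22 and 0.15; 0.04 and -0.07 and no calls after subtracting neighbours), and the genes around it had medians of 0.20 and 0.22. In clone 1, Zrsr1 had a change of -0.02, and -0.21 with neighbours subtracted (limma adjusted p = 0.59 and 2.1e-04).

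Gnas, the stimulatory G protein subunit at a locus with several overlapping transcripts, was the steadiest abundant member. Its level was 112, 113 and 113 RPKM in parental cells, 109, 112 and 108 in clone 1 and 109, 112 and 111 in clone 19. Every library of the clones lay slightly below every parental one. Neither change was called (-0.04 ± 0.02 and -0.03 ± 0.02, limma adjusted p = 0.063 and 0.23). Both became calls with median-ratio scaling (-0.08 and -0.05, limma adjusted p = 0.0027 and 0.0414) and with neighbouring genes subtracted (-0.14 and -0.10). Airn, the silencing RNA antisense to Igf2r, had 1.11, 0.874 and 1.01 RPKM in parental cells, 1.16, 0.937 and 1.08 in clone 1 and 1.37, 0.986 and 1.27 in clone 19, with all groups overlapping. Its changes of 0.06 ± 0.10 and 0.19 ± 0.10 were not called (limma adjusted p = 0.62 and 0.12). The second became a call with the replicate block (adjusted p = 0.0412), with quantile normalization (0.0488) and without clone 19 replicate 2 (0.29, adjusted p = 0.0250).

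Igf2r, the receptor that clears IGF2 and that Airn silences on the paternal copy, was at 7.71 RPKM in parental cells, 7.15 in clone 1 and 7.11 in clone 19 (-0.10 ± 0.07 and -0.11 ± 0.07, limma adjusted p = 0.18 and 0.16). With neighbouring genes subtracted Igf2r was called lower in both (-0.22 and -0.19, limma adjusted p = 0.0103 and 0.0217). Airn was 0.109 to 0.143 times Igf2r in parental libraries, 0.145 to 0.151 times in clone 1 and 0.148 to 0.194 times in clone 19. Reads of the overlapping part cannot be assigned to a strand from these values. Of the cation transporters in the same domain, Slc22a2 had 0.0106, 0 and 0.0141 RPKM in parental cells, 0 in every library of clone 1 and 0.0319, 0.0140 and 0.0189 in clone 19. Slc22a3 was at 0 in the 6 parental and clone 1 libraries and at 0.00973, 0 and 0.0115 RPKM in clone 19. Such levels are worth a few reads at most.

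Of the members under the filter, Gatm differed most. Gatm makes the precursor of creatine, and it had 0.0288, 0.0451 and 0.0513 RPKM in parental cells, 0, 0.0130 and 0 in clone 1, and 0.419, 0.343 and 0.359 in clone 19. The 3 groups did not overlap. With no filter Gatm was called higher in clone 19 (0.69, limma adjusted p = 7.7e-07) and lower in clone 1 (-0.10, limma adjusted p = 0.0465). Every value lay below the pseudocount of 0.5, and the clone 1 call compared levels of 0.0513 RPKM or less. In all, 9 of the 21 untested loci with a value above 0 had no overlap between clone 1 and parental libraries, 2 higher and 7 lower, where 22.8% of the 9111 untested genes with a value above 0 had none. In clone 19 it was 5 higher and 6 lower, against 22.4%. With 3 libraries against 3, a single-gene exact permutation test could not fall below 0.1, and none was run.

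**Figure D4:**
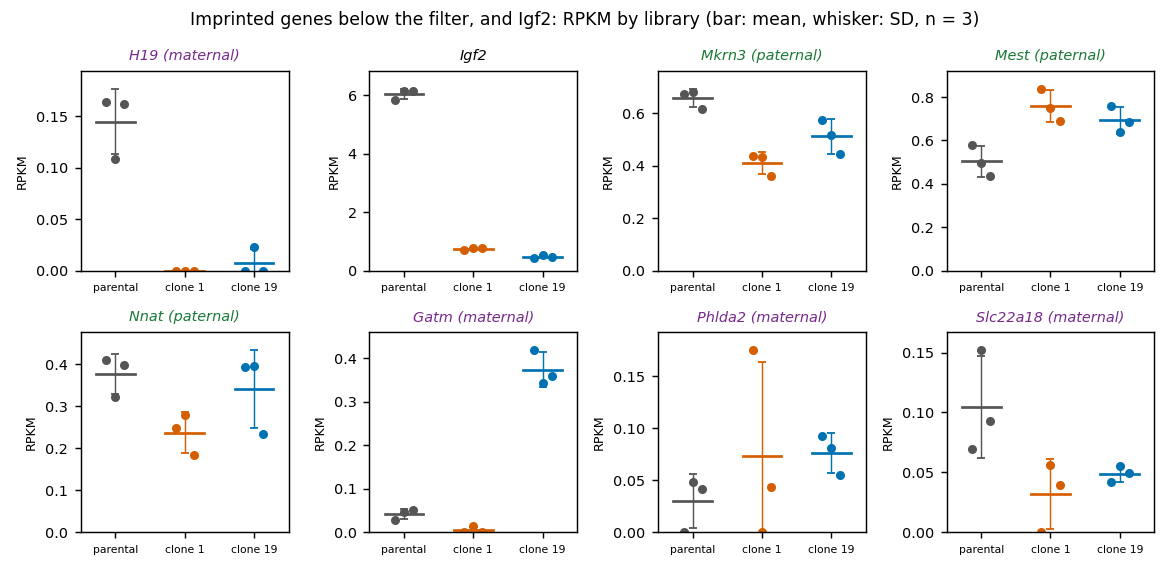
RPKM by library (points, y axis from 0) of 7 imprinted genes below the filter and of Igf2 by group (x axis), with mean and SD (n = 3). H19 and Igf2 are lower in both clones than in any parental library, and Gatm stands at 0.343 to 0.419 in clone 19 and at or below 0.0513 elsewhere.

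The Dlk1-Dio3 domain was at or near 0 in all groups. Dlk1, a transmembrane relative of Notch ligands, was listed at 0.00470 RPKM in parental replicate 1 and at 0 in all other libraries. Meg3, the maternally expressed non-coding RNA, was at 0 throughout, and Rtl1, a placental protein of retrotransposon origin, was at no more than 0.0231 RPKM, with the clone 19 libraries above the parental ones. Dio3, the enzyme that inactivates thyroid hormone, was at 0.0486 to 0.0605 RPKM in parental cells and at 0 in 4 of the 6 libraries of the clones. Plagl1, the transcription factor Zac1 that other imprinted genes respond to, stayed between 0.0407 and 0.0907 RPKM, highest in clone 19, and the Ras activator Rasgrf1 was listed at 0 throughout.

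**Figure D5:**
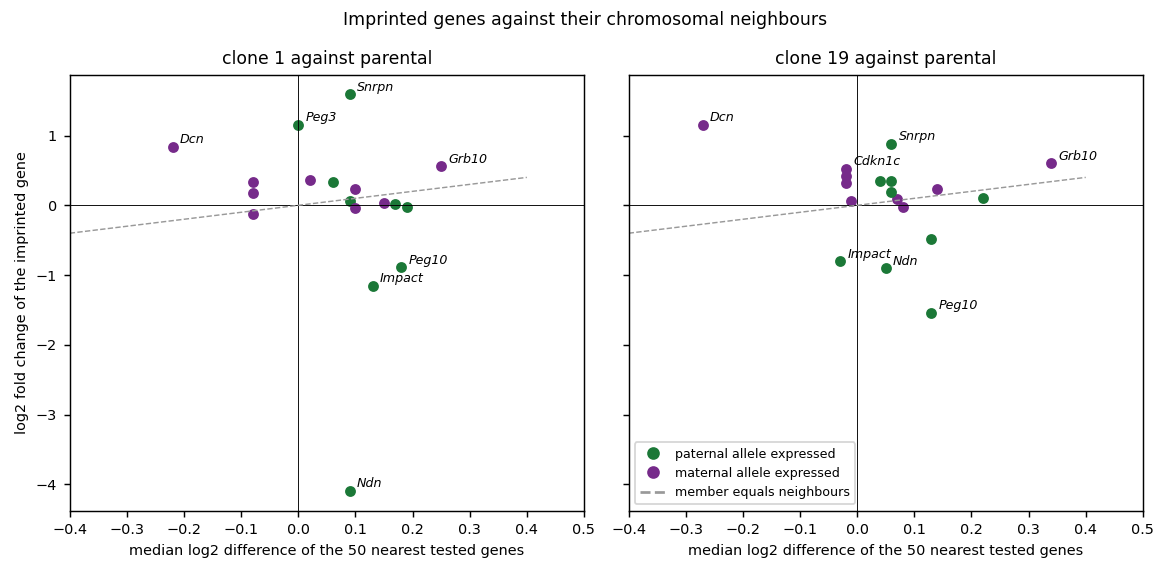
Log2 fold change of each tested member (y axis) against the difference between clone and parental cells in the per-library median deviation of its own 50 nearest tested genes (x axis; the value subtracted in that alternative, and not the median of single-gene changes around a domain given in the text) in clone 1 (left) and clone 19 (right), coloured by expressed allele, with the dashed line where both are equal. Ndn, Snrpn, Peg10 and Impact lie far from the line at neighbour medians between -0.03 and 0.18, Dcn lies above lower neighbours (-0.22 and -0.27) and Grb10 above higher ones (0.25 and 0.34).

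Genes that set or keep imprints were measured as a separate list of 30, of which 25 were tested. There were 10 called higher, 8 lower and 7 neither way in clone 1, against 9, 6 and 10 in clone 19, so 18 and 15 of the 25 were called, beside 72.4% and 69.0% of all tested genes. Zfp57, the zinc finger protein that protects methylated imprints, fell in clone 1, from 10.0 ± 0.319 to 6.34 ± 0.144 RPKM (-0.62 ± 0.05, limma adjusted p = 1.5e-06), and was at 9.16 ± 0.763 in clone 19 (-0.12 ± 0.05, limma adjusted p = 0.063). The clones differed by 0.49 (limma adjusted p = 5.6e-05). Genes next to Zfp57 were lower as well, with log2 differences of -0.31 and -0.12 in their per-library median, and subtracting them left -0.31 in clone 1 (limma adjusted p = 8.8e-04). Its partner Trim28 rose from 115 to 121 and 136 RPKM (0.08 and 0.25).

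Smchd1, a chromatin protein needed at several imprinted clusters, fell from 18.9 to 9.16 and 12.6 RPKM (-1.01 ± 0.05 and -0.58 ± 0.05, limma adjusted p = 9.6e-09 and 1.0e-06). Dnmt3a, the methyltransferase that sets imprints in the germ line, rose from 2.35 to 4.48 and 4.13 RPKM (0.81 and 0.70), and Tet2, which oxidises methylcytosine, rose from 1.04 to 2.03 and 1.89 RPKM (0.71 and 0.64; 0.42 and 0.37 after subtracting neighbours; 1 parental library was under 1 RPKM). Dnmt1, which copies methylation at replication, was at 53.2, 52.4 and 48.8 RPKM and was called lower in clone 19 alone (-0.12, limma adjusted p = 0.0038), and subtracting neighbouring genes ended that call (-0.01, limma adjusted p = 0.80). Its recruiter Uhrf1 fell in clone 1, from 35.1 to 26.7 RPKM (-0.38, limma adjusted p = 1.2e-06), and was at 34.7 in clone 19. Subtracting neighbouring genes gave -0.12 in clone 1 and a called 0.12 in clone 19 for Uhrf1 (limma adjusted p = 0.0072 and 0.0079). Ctcf, the insulator protein, rose from 30.4 to 37.2 and 38.9 RPKM (0.29 and 0.35; 0.16 and 0.19 after subtracting neighbours), and Ehmt1, a histone methyltransferase, fell from 18.0 to 12.5 and 13.4 RPKM (-0.51 and -0.42; -0.23 and -0.13 after subtracting neighbours). DNA methylation itself was not measured in these libraries.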

How the data were processed

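RNA of 9 libraries, 3 for each of 3 groups, was taken with an RNA-easy kit and prepared with a TruSeq kit, per the labels' protocols. The authors deposited 1 table of RPKM values for 28059 Entrez gene IDs. GSNAP, DESeq and the build NCBIM37 are named, without versions or roles, per the submitters' processing notes. For annotation, counting rule and strand use the entry is: not given in the sources used here. Columns were assigned by the identifier in each sample's description. Members were matched by symbol through the RefSeq gene table of GRCm38.p6, which was used for names, chromosome and gene order.

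All 9 libraries entered 1 model of group means (R 4.3.3, limma 3.58.1), fitted to log2(RPKM + 0.5) and allowing the variance to follow the mean. The 12568 genes with at least 1 RPKM in at least 3 libraries entered, p-values were adjusted over all of them (Benjamini-Hochberg), and a call is an adjusted p under 0.05. Fold changes on this scale understate the change of low genes. Depth was estimated from low values of genes with 1 transcript in GENCODE. Between 68.2% and 72.0% of these came within 0.05 of whole reads, so depths are approximate and no count test was run. The procedure was run on simulated data in which a small share of genes was raised in clone 1. That run does not check calls where most genes change in both directions, as in these data.

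Members, lists and tests were chosen with earlier results of these data known. Library values are given for members changed at least 2-fold in a contrast or listed at 0 in every library of 1 group, and for others where the text says so; from the other lists a fixed set and up to 4 genes with the largest change are named. Alternatives were pseudocounts of 0.1 and 1, no filter or one at 3 RPKM, scaling by median ratios, quantile normalization, a constant prior variance, library weights, the replicate number as a block, fits of 2 groups alone, subtraction of the median deviation of 50 neighbouring genes, a 2-fold threshold and leaving out each library.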

Additional observations from a re-analysis of the deposited data

Results flagged for a closer look

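The contrast of clone 19 with clone 1 tests whether the 2 knockout clones differ in their change from parental cells, and 13 of the 18 tested imprinted loci were called in it (limma, adjusted p under 0.05), where 43.0% of all tested genes were. Differences are given as log2, clone 19 minus clone 1. Ndn was higher in clone 19 by 3.18, Cdkn1c by 0.65, Impact by 0.34, Dcn by 0.31, Copg2 by 0.19, Zrsr1 by 0.13 and Cd81 by 0.09. Peg3 was lower in clone 19, at -0.80, as were Snrpn at -0.71, Peg10 at -0.65, Sgce at -0.51, Ube3a at -0.14 and Tssc4 at -0.11. The value of Ndn depends on the pseudocount, with 5.21 at 0.1 and 2.36 at 1. Cdkn1c passed the filter through clone 19 alone, where it was high, and with no filter its adjusted p was 0.0011 in limma. Ube3a, Tssc4 and Cd81 lost their calls in 10, 12 and 1 of 20 alternatives, so the count of 13 depends on the processing.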

How the results depend on the processing

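Over 54 member changes in 3 contrasts and 1074 alternative values of them, Ndn, Snrpn, Peg3, Peg10, Impact and Dcn kept direction and call in each alternative fit run for them. Of the loci called in clone 1 (12; 9 higher, 3 lower), no filter gave 20 and 10 lower, subtracting neighbouring genes gave 6 lower, and a 2-fold threshold left 4, of which 2 higher. In clone 19 (14; 10 higher, 4 lower), no filter gave 8 lower, and a 2-fold threshold left 2, with 1 higher and 1 lower. Between the clones (13; 7 higher, 6 lower), no filter, median-ratio scaling, quantile normalization and the fit without a trend each gave 4 lower, within 1.5 times of the 6, and a 2-fold threshold left 1, higher, and 0 lower. A 2-fold threshold is a stricter rule and can only leave fewer calls. With no filter more genes were tested. What moved the counts there, with neighbouring genes subtracted, or with the other scalings and no trend was not tested. Leaving out 1 library gave 12 to 13, 13 to 15 and 11 to 13 loci, and 4 to 6 lower between the clones.

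Directions that reversed belonged to small changes. With neighbouring genes subtracted these were Airn (-0.04), Sgce (-0.15) and Copg2 (-0.11) in clone 1, Zrsr1 (-0.11) in clone 19, and Grb10 (-0.05) and Blcap (0.00) between the clones. Cdkn1c in clone 1 was 0.03 with quantile normalization and Sgce -0.01 with median-ratio scaling. With 1 library left out, Airn ran from 0.00 to 0.12 and Sgce from -0.01 to 0.08 in clone 1, and between the clones Blcap from -0.06 to 0.00 and Mcts2 from -0.02 to 0.03. Between the clones, Ube3a and Tssc4 lost their calls in 10 and 12 of 20 alternatives, and Cd81 with neighbours subtracted (0.02). No scaling moved the median of all genes by more than 0.1.

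Same-numbered libraries of different groups correlated at -0.035 to 0.123 in their deviations, and differently numbered ones at -0.14 to 0.081. Between parental and clone 1, the same-numbered pairs (0.123, 0.068 and 0.071) lay above the others (at most 0.059). These small values do not settle whether the numbers mark a pairing. The replicate block gave 12, 15 and 12 loci for the 3 contrasts. Levels under about 0.13 RPKM rest on few reads for a transcript of 1 kilobase.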

Other observations

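Among 55 other genes of the same chromosome stretches, 52 were in the table and 30 were tested. In clone 1, 13 rose and 12 fell, and in clone 19, 10 rose and 12 fell, shares of 83.3% and 73.3% beside 72.4% and 69.0% of all tested genes. Phactr2, a phosphatase and actin regulator next to Plagl1, fell from 1.24 ± 0.125 RPKM (SD, n = 3) to 0.420 ± 0.0297 and 0.264 ± 0.0170 RPKM (a log2 change of -0.92 and -1.19), with the per-library median of genes around it lower as well (by a log2 difference of -0.17 and -0.22). It reached 1 RPKM in the parental libraries alone. Dync1i1, a dynein chain beyond Peg10, rose from 4.06 ± 0.0329 to 9.46 ± 0.664 and 8.04 ± 0.104 RPKM (1.13 and 0.90). In the stretch of Kcnq1, the tetraspanin Tspan32 rose from 0.472 to 1.40 and 1.18 RPKM (0.97 and 0.79) and reached 1 RPKM in the clones alone, and Tnfrsf23, a decoy receptor of the TNF family, fell from 3.81 to 1.77 RPKM in both clones (-0.92 and -0.93). With no filter the adjusted p-values in limma were 3.2e-06 and 7.3e-07 for Phactr2 and 1.8e-05 and 8.0e-05 for Tspan32, which had each passed through 1 side of the comparison.

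Dnmt3l, the partner of the germ-line methyltransferases, was listed at 0 in all 6 libraries of the clones and at 0.0480 to 0.0802 RPKM in the parental ones. It did not reach the filter and is named after its values were seen.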
